A study of Mus musculus with 12 samples.

Results

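Lysosomes are acidic organelles in which hydrolases break down proteins, lipids and sugars, and autophagy delivers worn cell parts to them in double-membraned vesicles. The hydrolases need the acid that a proton pump, the V-ATPase, makes, and the vesicles form through the ULK1 and beclin complexes and the conjugation of LC3. In the brain, loss of several of these genes causes lysosomal storage disease with neuron loss, and enlarged autophagic vesicles collect around amyloid plaques. A list of 57 lysosome and autophagy genes was followed here through non-coding transcripts of those genes, which mostly keep an intron that the messenger RNA lacks.

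The series measured RNA of the hippocampus and the cerebral cortex from 7-month-old mice on the C57BL/6J background. The 5 × FAD mice co-express familial Alzheimer's disease mutations in APP and PS1, and the wild-type (WT) mice are non-transgenic animals of the same age, with no further treatment in either group. There were 3 libraries in each of the 4 region and genotype groups, 12 in all, and each mouse gave both brain regions. The table held whole-number counts for 48033 long non-coding transcripts, each a row of the table, with 3517967 to 5014389 counts per library, so that 3 counts stood for 0.598 to 0.853 CPM, the counts of a row scaled to a common library size. Transcript identifiers were matched to GENCODE vM21 on GRCm38, and a row belonged to the set where that annotation gave it the name of a listed gene.

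Of the 57 genes, 46 had at least 1 row, and together they had 166 rows. The remaining 11, Ctsb, Ctsf, Gla, Glb1, Hexa, Ppt1, Psap, Tsc2, Rab7, Atg12 and Gabarapl1, were not analysed here. GENCODE typed 108 of the 166 rows (65.1%) as retained introns and 58 as processed transcripts, beside 59.0% retained introns among the 31684 rows of all genes that have a protein-coding transcript. The values below are therefore counts given to rows annotated as non-coding, and none is a measured level of the protein-coding messenger RNA. Many rows also share most bases with coding exons. Only 7.30%, 7.67% and 8.35% of the main Atg16l1, Gaa and Map1lc3a rows lie outside the exons of coding transcripts. How many reads of such rows came from messenger RNA was not tested. The member rows took 0.277% to 0.401% of a library's counts, and 35 of them stayed under 10 counts in every library. In 10 of the 46 genes there was a single row, and in 37 the row with the most counts held at least 50% of the gene's total.

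Marker lists were summed in each library before the groups were compared. Each group is described as holding both female and male mice, but Y-linked transcripts were detected in all 6 WT libraries and, among the 5 × FAD libraries, in the 2 numbered 3 alone, with 0 counts in those numbered 1 and 2. Sex and genotype therefore cannot be told apart in 5 × FAD 1 and 2, and within the libraries with Y-linked counts a single 5 × FAD library per region remained, too few for a separate comparison. The microglial list (7 of 16 markers in the table, mostly Trem2) summed to 33.9 to 44.7 CPM in WT hippocampus and to 188, 209 and 54.0 CPM in 5 × FAD hippocampus 1, 2 and 3. In the cortex it summed to 48.3 to 73.6 CPM in WT and to 262, 224 and 41.1 CPM in 5 × FAD 1, 2 and 3. The 5 × FAD 3 sum was thus above all WT libraries in the hippocampus and below all of them in the cortex, and far under 5 × FAD 1 and 2 in both. Astrocyte markers (6 of 8 in the table) summed to 622 and 533 CPM in 5 × FAD hippocampus 1 and 2, against 1241 to 1508 CPM in the other 4 hippocampal libraries. Slc1a3 set this gap, at 515 and 409 CPM against 1065 to 1380 CPM. Aldoc was lower there too, at 8.58 and 13.4 CPM against 22.4 to 67.8 CPM, and Slc1a2 was lowest in 5 × FAD 1 (61.6 CPM). Gja1 at 31.0 and 21.1 CPM was not lower than in WT hippocampus (18.3 to 25.8 CPM). Nor was Aldh1l1, at 3.79 and 6.11 CPM against 3.70 to 5.17 CPM, and Gfap stayed at 0 to 1.77 CPM. The neuronal list (8 of 8 in the table) summed to 7281 CPM in 5 × FAD hippocampus 1, against 1464 to 3330 CPM in the other 5 hippocampal libraries and 1394 to 3209 CPM in the cortex. In that library Slc17a7 (3757 CPM) and Gad1 (2416 CPM) were the highest of the 6, while Snap25 (184 CPM) and Map2 (331 CPM) were the lowest. Oligodendrocyte markers (5 of 8 in the table) summed to 344 to 422 CPM in WT and 496 to 599 CPM in 5 × FAD hippocampus, and to 298 to 482 CPM in WT and 546 to 618 CPM in 5 × FAD cortex, without overlap in either region and with 5 × FAD 3 on the side of its genotype. In the hippocampus Cnp set this gap (161 to 241 CPM in WT, 285 to 420 CPM in 5 × FAD). The hippocampal list (4 of 8 in the table) was at 117 to 136 CPM in the hippocampus and at 29.3 to 54.2 CPM in the cortex without overlap. The cortical list (5 of 8 in the table) was at 154 to 267 CPM in the hippocampus, highest in 5 × FAD 1, and at 283 to 509 CPM in the cortex. In bulk tissue, fewer cells of a type and less RNA per cell cannot be told apart.

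The bases that set these rows apart from the coding transcripts are shown for the genes on which the results turn. Capitals mark bases outside the exons of the same gene's protein-coding transcripts, called own bases here, and lower case marks exon bases shared with them. In the Cln3, Scarb2, Atp6v1h and second Becn1 sequence the capitals open an intron that is kept, and in the Npc2 and first Becn1 sequence they close the kept stretch. Each run of 60 bases is printed 5′ to 3′ on the gene's own strand from GRCm38.
Cln3 row ENSMUST00000153790, chr7:126579143-126579202, minus strand: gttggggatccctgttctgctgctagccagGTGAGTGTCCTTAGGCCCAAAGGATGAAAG
Scarb2 row ENSMUST00000201253, chr5:92505162-92505221, minus strand: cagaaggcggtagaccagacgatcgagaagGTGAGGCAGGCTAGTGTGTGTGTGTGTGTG
Npc2 row ENSMUST00000223200, chr12:84760863-84760922, minus strand: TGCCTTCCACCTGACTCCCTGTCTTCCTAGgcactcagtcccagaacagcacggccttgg
Atp6v1h row ENSMUST00000192142, chr1:5098104-5098163, plus strand: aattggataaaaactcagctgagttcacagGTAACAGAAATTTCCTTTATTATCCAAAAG
Becn1 row ENSMUST00000122817, chr11:101295595-101295654, minus strand: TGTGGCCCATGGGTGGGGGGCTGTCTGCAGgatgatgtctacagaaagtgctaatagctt
Becn1 row ENSMUST00000139997, chr11:101294940-101294999, minus strand: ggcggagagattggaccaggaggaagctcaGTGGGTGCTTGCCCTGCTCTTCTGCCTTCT

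The most abundant Vps39 row has a different make-up, since 70 of its 4055 bases lie outside the coding exons and form 1 extra exon among 26. That exon, chr2:120349086-120349155 on the minus strand, is shown in capitals between the 15 spliced bases on either side, because these are its only bases outside coding-transcript exons.
Vps39 row ENSMUST00000129857: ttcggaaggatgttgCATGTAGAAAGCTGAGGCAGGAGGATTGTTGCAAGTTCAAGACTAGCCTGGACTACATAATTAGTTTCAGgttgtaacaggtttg

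In the hippocampus, 5 × FAD libraries were compared with WT libraries to ask whether the transgenes go with other levels of these transcripts. None of the 42 member genes that passed the filter on low counts reached an adjusted p of 0.05 when a gene's rows were summed (edgeR quasi-likelihood test, 0 of 42, background 0.0529% of 11343 genes), and DESeq2 also called 0 of 42 (background 0.732%). At an unadjusted p under 0.05 there were 3 members by edgeR, Scarb2, Cln3 and Grn, and 3 by DESeq2 (924 of 11343 over all genes). Those of edgeR each had the larger mean in 5 × FAD, and they made up 7.14% beside a background of 8.69% (4.83% in that direction). Sex could not be told apart from genotype in them, since 5 × FAD 1 and 2 had no Y-linked counts. A positive log2 fold change was given to 31 of the 42 members, 73.8%, beside 53.1% of all genes. The median of the members was 0.17 on the log2 scale and that of all genes 0.03. With Y-linked detection as a covariate, 5 × FAD 3 alone set the genotype effect, and these medians were 0.22 and 0.004. The groups did not overlap for 6 members, 14.3%, beside 16.4% of all genes. Leaving out any 1 of the 6 libraries left 0 members called by edgeR.

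**Figure D1:**
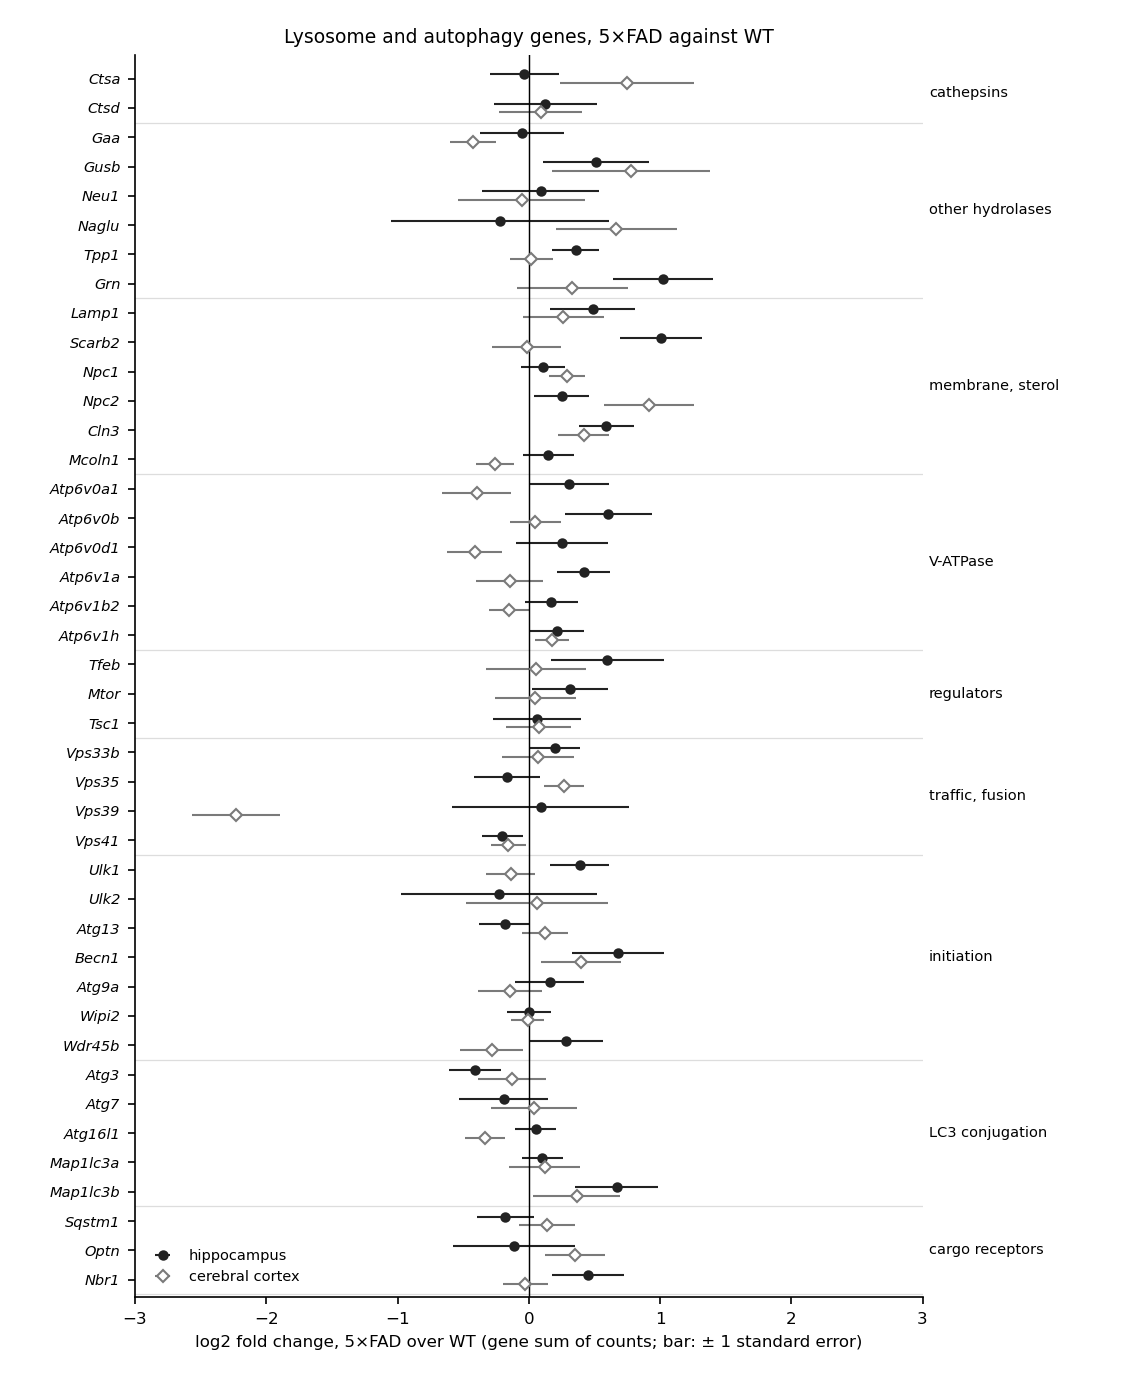
Log2 fold change of 5 × FAD over WT on the horizontal axis for each of the 42 tested gene sums, ordered by role, in the hippocampus (filled circles) and the cerebral cortex (open diamonds), with bars of 1 standard error (3 libraries per group). In the hippocampus 31 of the 42 circles lie to the right of 0, and the Vps39 diamond at -2.23 is the farthest from 0.

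Among the 6 genes of the lysosomal membrane and of sterol transport, all had a positive log2 fold change in the hippocampus, from 0.11 for Npc1 to 1.01 for Scarb2. Scarb2 encodes LIMP-2, a membrane protein that carries glucocerebrosidase to lysosomes, and its single row keeps the start of the first intron printed above. That intron stretch holds 391 of the row's 1587 own bases, and the rest form another segment. Scarb2 measured 4.27, 5.73 and 4.99 CPM in WT hippocampus and 12.9, 7.60 and 9.11 CPM in 5 × FAD hippocampus. Every 5 × FAD library was above every WT library, with the largest value in 5 × FAD 1. Its neuronal sum was raised through Slc17a7 and Gad1, while Snap25 and Map2 were low in that library. The log2 fold change was 1.01 ± 0.31 (SE, n = 3 and 3) with an unadjusted p of 0.0141 and an adjusted p of 0.526, and without that library it was 0.76 ± 0.31. In the cortex Scarb2 measured 7.98, 9.46 and 9.12 CPM in WT and 11.1, 7.71 and 7.48 CPM in 5 × FAD, and the groups overlapped. The difference between the genotype effects of the regions was 0.99 ± 0.38 on the log2 scale, with an unadjusted p of 0.0249 and an adjusted p of 0.671 by edgeR.

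Cln3, whose protein is a lysosomal membrane protein lost in juvenile Batten disease, showed no overlap in either region for the sum of its rows. It measured 14.1, 14.7 and 16.6 CPM in WT hippocampus and 24.9, 21.7 and 20.4 CPM in 5 × FAD hippocampus, a log2 fold change of 0.59 ± 0.21 (unadjusted p = 0.0257, adjusted p = 0.532). In the cortex it measured 19.7, 21.7 and 24.2 CPM in WT and 25.9, 27.4 and 34.5 CPM in 5 × FAD, a log2 fold change of 0.42 ± 0.20 (unadjusted p = 0.0706, adjusted p = 0.756). The 5 × FAD 3 libraries, with the lowest microglial sums of their genotype, were above all WT libraries of their region too, as they were for the oligodendrocyte list, whose part in the result was not tested. They are the only 5 × FAD libraries with Y-linked counts and so may be from the same mouse. The highest 5 × FAD value was in library 1 in the hippocampus, without which the log2 fold change was 0.50 ± 0.22, and in library 3 in the cortex.

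The rows of Cln3 did not share one direction. ENSMUST00000124177, with 36.1% of the gene's counts, had 25, 22 and 39 counts in WT hippocampus and 36, 18 and 23 in 5 × FAD hippocampus, with overlap. In the cortex it had 26, 26 and 31 counts for WT, against 40, 37 and 84 for 5 × FAD. ENSMUST00000128225 had 31 of the gene's 94 counts in 5 × FAD hippocampus 2, and 2 to 4 counts in each other hippocampal library. The lack of overlap of the hippocampal sums leaned on that row. ENSMUST00000153790, whose junction is printed above and which held 22.8% of the gene's counts, had 6, 11 and 12 counts in the WT hippocampi and 43, 16 and 25 in those of 5 × FAD. In the cortex the same row had 16, 17 and 7 counts for WT, against 47, 31 and 26 for 5 × FAD. Both regions were free of overlap for this row, at log2 fold changes of 1.69 ± 0.51 in the hippocampus (unadjusted p = 0.0141, adjusted p = 0.612) and 1.37 ± 0.37 in the cortex (unadjusted p = 0.00893, adjusted p = 0.844). ENSMUST00000134406, another retained-intron row, had 26, 23 and 17 counts in the WT cortices, against 12, 3 and 15 in those of 5 × FAD, and its log2 fold change was -1.18 ± 0.49 (unadjusted p = 0.0492, adjusted p = 0.912).

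**Figure D2:**
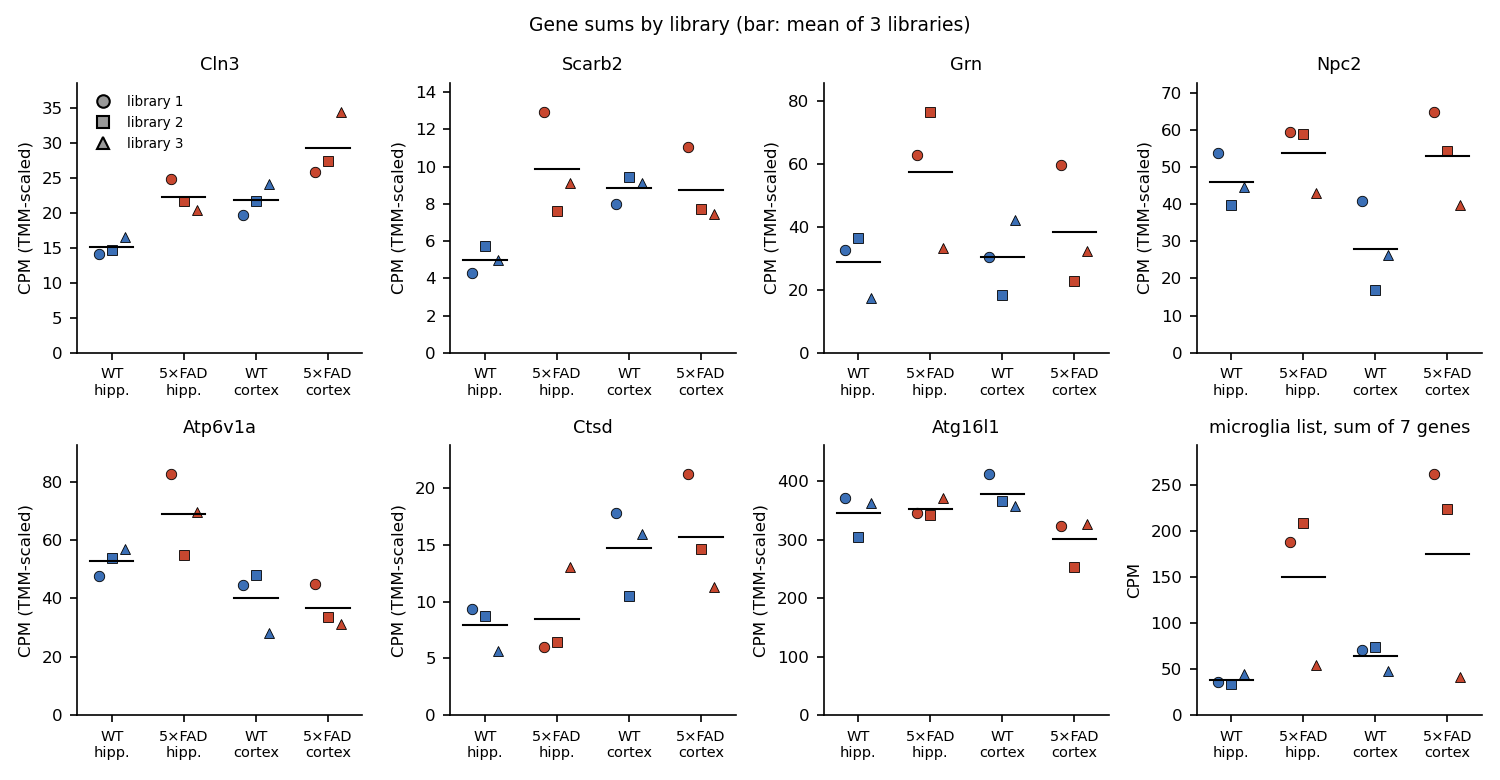
Each panel plots 1 gene sum in CPM after TMM scaling for the 12 libraries, with circles, squares and triangles for libraries 1, 2 and 3, blue for WT, red for 5 × FAD and a bar at the mean of 3. The last panel shows the summed CPM of the microglial list, where 5 × FAD 1 and 2 stand at 188 to 262 CPM and 5 × FAD 3 at 41.1 to 54.0 CPM. Cln3 has 5 × FAD above WT without overlap in both regions, while the groups of Grn overlap in both.

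Npc2 and Npc1, which together move cholesterol out of lysosomes, had their larger difference in the cortex. Npc2 measured 40.8, 17.0 and 26.2 CPM in WT cortex and 64.9, 54.2 and 39.9 CPM in 5 × FAD cortex, at a log2 fold change of 0.92 ± 0.34 (unadjusted p = 0.0319, adjusted p = 0.734). WT 1 and 5 × FAD 3 lay within 1 CPM of each other, so the groups met at their edges. In its main row, ENSMUST00000223200, the cortical groups did not overlap, with 145, 53 and 76 counts for WT, against 257, 194 and 167 for 5 × FAD, and the log2 fold change was 1.13 ± 0.41 (unadjusted p = 0.0304, adjusted p = 0.912). In 5 × FAD cortex the order of the Npc2 sums from library 1 to library 3 was that of the microglial list. In WT cortex and in both hippocampal groups the orders differed. WT cortex 2 had the lowest Npc2 sum of its group and the highest microglial sum. With Y-linked detection as a covariate the log2 fold change of the cortical Npc2 sum was 0.51. The part of microglia in it was not tested.
In the hippocampus Npc2 measured 39.9 to 53.7 CPM in WT and 43.1 to 59.5 CPM in 5 × FAD. Npc1 was at 38.2 to 42.1 CPM in WT cortex and at 48.8 to 49.2 CPM in 5 × FAD cortex, without overlap. Mcoln1, the calcium channel mucolipin, went the other way in the cortex, at 153 to 183 CPM in WT and 122 to 150 CPM in 5 × FAD (log2 fold change -0.26 ± 0.15, unadjusted p = 0.119, adjusted p = 0.78). Lamp1, an abundant protein of the lysosomal membrane, had a single row of 4.65 to 9.36 CPM.

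The 5 hydrolase and helper genes beside Grn had no unadjusted p under 0.05 in the hippocampus. Grn encodes progranulin, a secreted and lysosomal glycoprotein that microglia make in quantity. Its rows summed to 32.6, 36.5 and 17.5 CPM in WT hippocampus and to 62.7, 76.5 and 33.3 CPM in 5 × FAD hippocampus. The 5 × FAD 3 library lay inside the WT range and the others above it. The microglial sum was likewise highest in 5 × FAD 2 and lowest in 5 × FAD 3, although there the latter was above WT. In WT hippocampus the orders differed, since library 3 had the lowest Grn sum and the highest microglial sum, 44.7 CPM. The log2 fold change of the Grn sum in the hippocampus was 1.02 ± 0.38 (unadjusted p = 0.0301, adjusted p = 0.54), and with Y-linked detection as a covariate it was 0.23. Row ENSMUST00000135517, with 68.4% of the gene's counts, had 88, 105 and 18 counts in WT hippocampus and 194, 278 and 89 in 5 × FAD hippocampus. ENSMUST00000176953 went the other way, at 24, 26 and 16 counts against 16, 17 and 8. So did ENSMUST00000138451, at 16, 20 and 27 counts against 9, 12 and 16. The remaining rows held 3.48% to 4.94% of the counts each. In the cortex Grn was at 18.5 to 42.2 CPM in WT and at 59.5, 22.9 and 32.2 CPM in 5 × FAD. There 5 × FAD 2 was below 5 × FAD 3, while their microglial sums were 224 and 41.1 CPM. The part of microglia in these values was not tested.
Gaa, the acid glucosidase that digests glycogen, measured 57.9, 69.6 and 59.0 CPM in WT cortex and 48.7, 38.3 and 52.4 CPM in 5 × FAD cortex, all 5 × FAD values being the lower ones. The log2 fold change was -0.42 ± 0.18 (unadjusted p = 0.0461, adjusted p = 0.74). Tpp1, a peptidase lost in late infantile Batten disease and the hydrolase with the most counts, measured 248, 187 and 258 CPM in WT hippocampus and 290, 302 and 281 CPM in 5 × FAD hippocampus (log2 fold change 0.36 ± 0.18, unadjusted p = 0.0834, adjusted p = 0.604). Its log2 fold change in the cortex was 0.02 ± 0.17, with a sign that turned under several settings. Among the cathepsins, the lysosomal proteases, Ctsa and Ctsd were tested, and neither had an unadjusted p under 0.05 in either genotype comparison. Ctsa stood at 22.5 to 41.8 CPM in 11 libraries and at 98.3 CPM in 5 × FAD cortex 1. Ctsl had 1 to 8 counts and Sgsh 0 to 16, and both failed the filter.

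The 6 V-ATPase genes all had positive log2 fold changes in the hippocampus, from 0.17 for Atp6v1b2 to 0.61 for Atp6v0b, and none had an unadjusted p under 0.05 for its sum. In the cortex 2 were positive and 4 negative. For Atp6v0b, whose protein is part of the membrane ring of the pump, 5 × FAD hippocampus 1 measured 214 CPM and the other 5 hippocampal libraries 86.8 to 105 CPM, so 1 library set the difference. It is the library whose neuronal sum was raised through Slc17a7 and Gad1 while Snap25 and Map2 were low. Without that library the log2 fold change was 0.11 ± 0.17. The part of neurons in this value was not tested. Atp6v1h, a regulatory subunit, had the most even row among those with a mean of at least 50 counts. ENSMUST00000192142 had 473, 454 and 426 counts in WT hippocampus and 594, 600 and 469 in 5 × FAD hippocampus. Scaled, this was 101, 96.8 and 96.7 CPM against 146, 138 and 114 CPM without overlap, a log2 fold change of 0.45 ± 0.18 (unadjusted p = 0.0452, adjusted p = 0.655). That row held 35.9% of the gene's counts. The main row, ENSMUST00000194301 (55.8%), overlapped, at 689, 791 and 896 counts against 736, 1003 and 473. The gene sum also overlapped, at 270, 287 and 325 CPM in WT hippocampus and 358, 396 and 252 CPM in 5 × FAD hippocampus.

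The regulators Tfeb, Mtor and Tsc1 had log2 fold changes of 0.60, 0.31 and 0.07 in the hippocampus, none with an unadjusted p under 0.05. Tfeb is the transcription factor that switches on lysosomal genes, and its rows had 11 to 29 counts in a library. Among the initiation genes, Ulk1, the kinase that starts autophagy, had one row without overlap in the hippocampus. ENSMUST00000199568 measured 6.19, 5.97 and 5.22 CPM in WT and 11.6, 8.06 and 12.9 CPM in 5 × FAD (log2 fold change 0.91 ± 0.29, unadjusted p = 0.0163, adjusted p = 0.612). The sum over the 7 rows of Ulk1 overlapped between the groups.

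In the LC3 conjugation group, Map1lc3b, which encodes the LC3B protein that marks autophagic vesicles, had 1 row of 13688 counts in all. It measured 215, 171 and 212 CPM in WT hippocampus and 235, 480 and 220 CPM in 5 × FAD hippocampus. The 5 × FAD values were all the higher ones, but library 2 stood far above the rest (log2 fold change 0.67 ± 0.32, unadjusted p = 0.0718, adjusted p = 0.599), and without it the log2 fold change was 0.22. In the cortex it was 5 × FAD 1 that stood apart, at 495 CPM, with the other 5 libraries at 199 to 256 CPM. Atg16l1, a scaffold of LC3 lipidation and the gene with the most counts of all 46, lay at 304 to 371 CPM in both hippocampal groups. In the cortex it measured 412, 366 and 357 CPM in WT and 323, 253 and 327 CPM in 5 × FAD without overlap (log2 fold change -0.33 ± 0.15, unadjusted p = 0.061, adjusted p = 0.747). Atg3, the enzyme that transfers LC3 to lipid, measured 70.4 to 78.6 CPM in WT hippocampus and 46.8 to 68.2 CPM in 5 × FAD hippocampus, also without overlap. Atg5 had 0 to 6 counts in a library, and Wipi1 had 2 counts in WT hippocampus 1 and 0 in the other 11 libraries, each of which allows up to 3 counts. The cargo receptors Sqstm1, Optn and Nbr1 had no unadjusted p under 0.05 in either region.

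In the cortex, the same question gave 0 of 42 gene sums past an adjusted p of 0.05 by edgeR (background 0.0175% of 11404 genes), and 1 of 42, Vps39, by DESeq2 (background 0.465%). At an unadjusted p under 0.05 edgeR had 3 members, Vps39, Npc2 and Gaa, 7.14% beside a background of 6.67%. DESeq2 had 2 (664 of 11404 over all genes). As in the hippocampus, sex could not be told apart from genotype in these differences. A positive log2 fold change was given to 25 of the 42, 59.5%, beside 49.9% of all genes. The median log2 fold change was 0.05 for the members and -0.00 for all genes. With Y-linked detection as a covariate, where 5 × FAD 3 alone set the genotype effect, both were -0.01. The groups did not overlap for 9 members, 21.4%, beside 13% of all genes, with 3 higher and 6 lower in 5 × FAD.

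Vps39 encodes a subunit of HOPS, the tether that fuses late endosomes and autophagosomes with lysosomes. Its rows summed to 346, 373 and 191 CPM in WT cortex and to 73.3, 78.7 and 42.2 CPM in 5 × FAD cortex. The lowest WT library was above the highest 5 × FAD library by more than 100 CPM. The log2 fold change was -2.23 ± 0.34 (n = 3 and 3), with an unadjusted p of 0.000284 and an adjusted p of 0.274 by edgeR and an adjusted p of 1.86e-07 by DESeq2. Leaving out single libraries kept it between -2.48 and -2.004, and 5 × FAD cortex 3 was among the low libraries.
The hippocampus gave no such split, at 285, 178 and 70.1 CPM in WT and 130, 68.6 and 358 CPM in 5 × FAD. There the log2 fold change was 0.09 ± 0.67, and the difference between the regions' genotype effects was 2.29 ± 0.85 (unadjusted p = 0.0202, adjusted p = 0.661, edgeR). That difference was 1.42 without 5 × FAD hippocampus 3 and 1.19 without both libraries numbered 5 × FAD 3.

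1 row carried this difference. ENSMUST00000129857, the row with the 70-base extra exon, had 1167, 1446 and 483 counts in the WT cortices, against 33, 105 and 8 in those of 5 × FAD. In the hippocampus it had 996, 585 and 23 counts for WT, against 47, 66 and 922 for 5 × FAD, so high and low libraries occurred in both genotypes. The row's log2 fold change in the cortex was -4.28 ± 0.98 (unadjusted p = 0.0039, adjusted p = 0.74 by edgeR, 2.64e-05 by DESeq2, which called 0.464% of all rows). The other 7 Vps39 rows together had 307, 288 and 189 counts in the WT cortices, against 298, 191 and 178 in those of 5 × FAD, and these groups overlapped. Among them ENSMUST00000145193, which keeps introns over 84.1% of its 3545 bases, held between 91 and 135 counts in all 12 libraries. Vps33b, also listed for endolysosomal traffic and fusion, had a log2 fold change of 0.20 ± 0.19 in the hippocampus (unadjusted p = 0.325) and 0.07 ± 0.27 in the cortex (unadjusted p = 0.799). Its small row ENSMUST00000135470 measured 1.71, 2.13 and 2.95 CPM in WT hippocampus and 3.93, 4.14 and 6.10 CPM in 5 × FAD hippocampus without overlap (log2 fold change 1.07 ± 0.36, unadjusted p = 0.0234, adjusted p = 0.612), while in the cortex its groups overlapped.

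Becn1, which encodes beclin 1 of the complex that nucleates the autophagic membrane, also had rows that swung between libraries, with a steadier sum. The sum was 97.0 to 212 CPM in WT hippocampus, 161 to 313 CPM in 5 × FAD hippocampus, 125 to 279 CPM in WT cortex and 276 to 340 CPM in 5 × FAD cortex. ENSMUST00000139997 had 795, 3 and 440 counts in WT hippocampus and 10, 719 and 429 in 5 × FAD hippocampus. In the cortex it had 1, 44 and 50 counts for WT, against 206, 2 and 342 for 5 × FAD. This row thus ranged from 1 to 795 counts, with high and low libraries in both genotypes. ENSMUST00000122817 had 136, 377 and 193 counts in WT hippocampus, 1001, 543 and 139 in 5 × FAD hippocampus, 1123, 453 and 863 in WT cortex and 1215, 980 and 794 in 5 × FAD cortex. The share of the latter in the sum of both rows ran from 14.6% to 99.9% over the libraries. Both rows share a stretch of 282 own bases, and they are told apart by 1 kept intron of 822 bases, chr11:101294148-101294969, present in ENSMUST00000139997. In addition, 48.0% of ENSMUST00000122817 and 43.0% of ENSMUST00000139997 lie over exons of Cntd1 on the opposite strand, and whether strand was used in counting is not given in the sources used here. Such opposite-strand overlap touched 9 of the 166 rows, in Becn1, Ctsa and Atp6v0b, and no row shared exon bases with another gene on its own strand.

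**Figure D3:**
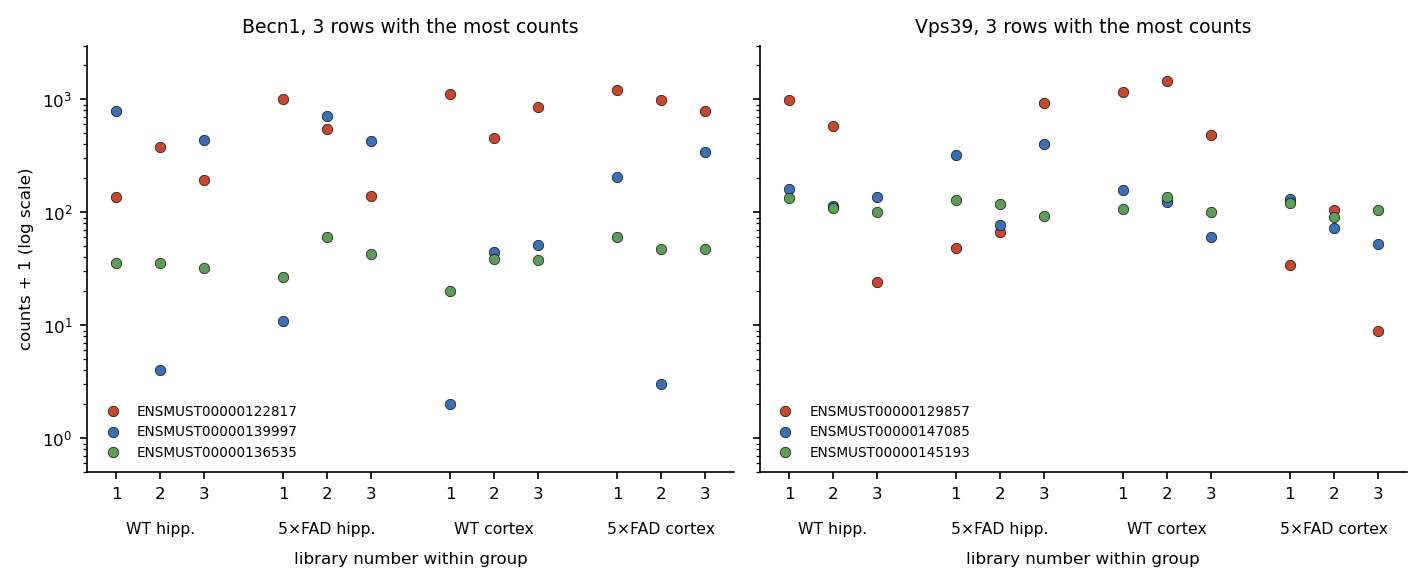
Counts plus 1 on a log axis for the 3 rows with the most counts of Becn1 (left) and Vps39 (right) in each of the 12 libraries, numbered 1 to 3 within the 4 groups. ENSMUST00000139997 of Becn1 falls to 1 to 3 counts in 3 libraries and reaches 795 in another, and ENSMUST00000129857 of Vps39 ranges from 8 to 1446 while ENSMUST00000145193 stays at 91 to 135.

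These swings were set against how much of a row is its own. The spread of a row was taken as the standard deviation of log2(CPM + 1) within groups, pooled over the 4 groups, for the 51 member rows with a mean of at least 50 counts. The 24 rows with at least 50% own bases had a median spread of 0.23, and the 27 rows with fewer had 0.43. Over all 7260 such rows of genes with a protein-coding transcript, the medians were 0.28 and 0.49, in the same order as among the members. Across the 51 rows, Spearman's rho between the own share and the spread was -0.57 (Pearson's r = -0.40), and across all 7260 it was -0.52 (r = -0.42). These are descriptions, since rows of 1 gene share reads and all rows share the 12 libraries. The number of exons went with the spread as well, at a rho of 0.41 over the members, while that of mean counts with the spread was 0.02. The most even rows, of Atp6v1h (0.10), Atg16l1 (0.11) and Mcoln1 (0.13), had 55.3% to 83.4% own bases. The widest were those of Becn1 (3.00), Vps39 (2.005) and Atp6v0a1 (1.45), with 31.8%, 1.73% and 26.8% own bases.

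**Figure D4:**
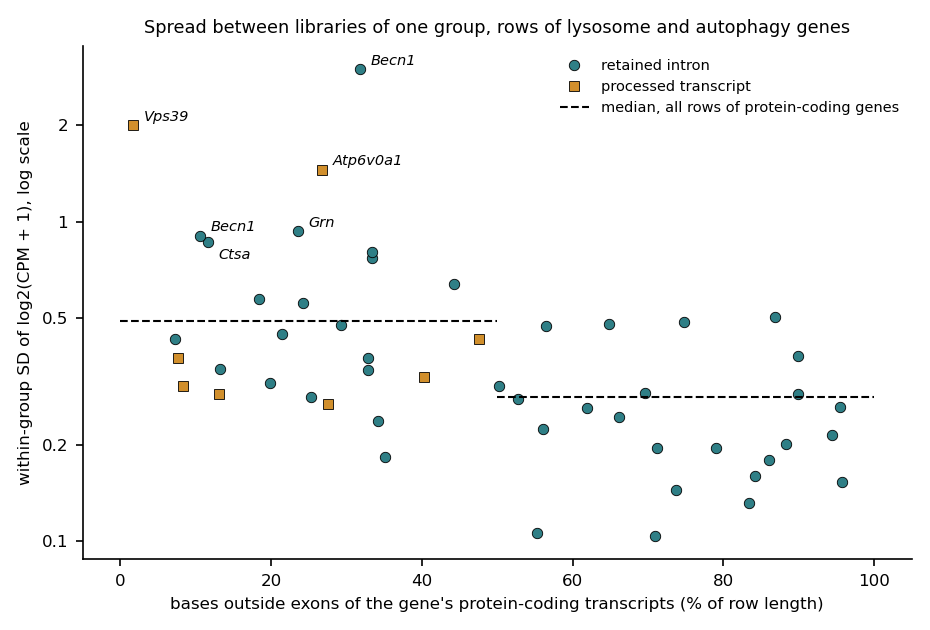
Within-group standard deviation of log2(CPM + 1), on a log axis, against the share of a row's bases outside the exons of the gene's protein-coding transcripts, for the 51 member rows with a mean of at least 50 counts. Circles are retained introns, squares processed transcripts, and the dashed lines are the medians of all such rows in the table, 0.49 under 50% own bases and 0.28 at or above it.

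Another such row belonged to Atp6v0a1, the pump subunit with the most counts. ENSMUST00000139857 had 610 counts in WT cortex 1 and 9 to 120 in the other 11 libraries. Its log2 fold change of -3.10 ± 1.25 in the cortex (unadjusted p = 0.0453, adjusted p = 0.912) rested on that library. The sum over the 5 rows of Atp6v0a1 was at 253 to 316 CPM in 10 libraries, with 566 CPM in 5 × FAD hippocampus 2 and 556.5 CPM in WT cortex 1. Rows in which every library had either at least 100 or at most 3 counts, with both kinds of library, made up 3.98% of the 9529 rows of the table that reached 100 counts. None of the 46 member rows that reached 100 counts was of that kind.

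Per row, the genotype comparisons gave 0 of 101 member rows past an adjusted p of 0.05 in the hippocampus by edgeR (background 0.0183% of rows) and 0 by DESeq2 (background 0.58%). At an unadjusted p under 0.05 edgeR had 6 (5.94% beside 7.58%). DESeq2 also had 6, and gave 1362 of all 21894 rows such a p. All 6 of edgeR had the larger mean in 5 × FAD, a direction in which 4.08% of all rows passed. In the cortex there were 0 of 102 by edgeR (background 0.0545%) and 1 by DESeq2, the Vps39 row above, with 5 at an unadjusted p under 0.05 by edgeR (4.9% beside 5.34%). The sixth hippocampal row, ENSMUST00000211560 of Tpp1, had 18, 12 and 4 counts for WT, against 14, 38 and 37 for 5 × FAD, with overlap (log2 fold change 1.53 ± 0.59, unadjusted p = 0.038, adjusted p = 0.64).

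The hippocampus was next compared with the cortex within each genotype. In WT, 0 of 42 members passed an adjusted p of 0.05 by edgeR, where 3.49% of all genes did, and DESeq2 also called 0 (background 6.66%). The regions did not overlap for 9 members, 21.4%, beside 24.8% of all genes. At an unadjusted p under 0.05 there were 6 members by DESeq2, which gave 1746 of 11429 genes such a p. By edgeR there were 5, all lower in the hippocampus (11.9% beside 17.3%, or 8.87% in that direction). They were Ctsd, Scarb2, Atg9a, Cln3 and Ulk1. Ctsd, the major aspartic protease of lysosomes, measured 9.38, 8.71 and 5.67 CPM in WT hippocampus and 17.8, 10.5 and 16.0 CPM in WT cortex, without overlap (log2 fold change -0.91 ± 0.30, unadjusted p = 0.0189, adjusted p = 0.178). Its 5 × FAD values were 5.97, 6.45 and 13.1 CPM in hippocampus and 21.3, 14.6 and 11.3 CPM in cortex, which overlapped, at a log2 fold change of -0.89 ± 0.40 (unadjusted p = 0.0612). Scarb2 had a log2 fold change of -0.84 ± 0.24 in WT (adjusted p = 0.136), and in 5 × FAD its regions overlapped. Atg9a, a membrane protein of vesicles that feed the forming autophagosome, stood at 13.2 to 18.4 CPM in WT hippocampus and 19.99 to 25.6 CPM in WT cortex (log2 fold change -0.66 ± 0.22, adjusted p = 0.173). Ulk1 stood at 22.9 to 25.0 CPM in WT hippocampus and 30.3 to 37.0 CPM in WT cortex (log2 fold change -0.54 ± 0.16, adjusted p = 0.137).
Cln3 was lower in the hippocampus without overlap in both genotypes, at a log2 fold change of -0.55 ± 0.18 in WT (unadjusted p = 0.018, adjusted p = 0.173) and -0.39 ± 0.21 in 5 × FAD (unadjusted p = 0.108, adjusted p = 0.527). Per row, 0 of 102 passed in WT by edgeR (background 0.986%, with 10 at an unadjusted p under 0.05, 9.8% beside 12.8%) and 1 by DESeq2 (background 3.38%), ENSMUST00000122817 of Becn1, with an adjusted p of 0.00486 by DESeq2 and of 0.174 by edgeR. It measured 29.0, 80.4 and 43.8 CPM in WT hippocampus and 266, 97.6 and 243 CPM in WT cortex. A row of Mcoln1, ENSMUST00000161705, had the smallest unadjusted p of the set there, 0.00388, at 57.4 to 65.3 CPM in WT hippocampus and 86.4 to 94.1 CPM in WT cortex (log2 fold change -0.57 ± 0.13, adjusted p = 0.13).

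In 5 × FAD, 0 of 42 members passed by edgeR (background 0.193%) and 0 by DESeq2 (background 2.95%). Each tool gave 2 an unadjusted p under 0.05. For edgeR this was 4.76% beside 12.6%, and DESeq2 gave 1314 of 11399 genes such a p. The regions did not overlap for 4 members, 9.52%, beside 19.3% of all genes. Atp6v1a, the subunit of the V-ATPase that binds ATP, measured 82.6, 55.1 and 69.7 CPM in 5 × FAD hippocampus and 44.9, 33.5 and 31.3 CPM in 5 × FAD cortex. The lowest hippocampal value was above the highest cortical one, at a log2 fold change of 0.91 ± 0.24 (unadjusted p = 0.00592, adjusted p = 0.2). In WT it was at 47.6 to 56.9 CPM in the hippocampus and 28.2 to 48.1 CPM in the cortex, with overlap. Vps39 was the other of edgeR's, at 1.52 ± 0.58 (unadjusted p = 0.0337, adjusted p = 0.357), with overlap between the regions. Per row, 0 of 105 passed by edgeR (background 0.0182%) and 0 by DESeq2 (background 1.66%). At an unadjusted p under 0.05 there were 2 by edgeR (1.9% beside 9.38%) and 3 by DESeq2 (1821 of 22016 over all rows).

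Whether the genotype effect differed between the regions was tested over all 12 libraries. None of 42 gene sums passed an adjusted p of 0.05 by edgeR (background 0% of 12104) or DESeq2 (background 0.173%). Each tool gave 2 an unadjusted p under 0.05, by edgeR Scarb2 and Vps39 (4.76% beside 7.01%). DESeq2 gave 857 of 12104 genes such a p. Per row, 0 of 111 passed by edgeR (background 0.00812%) or DESeq2 (background 0.438%). Each tool gave 4 an unadjusted p under 0.05, 3.6% beside 6.89% for edgeR. DESeq2 gave 1636 of 24632 rows such a p. The genotype effects of Cln3 were not shown to differ between regions or to be alike.

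A further 100 lysosome and autophagy genes outside the list of 57 were counted in the same fits, of which 71 were in the table and 70 were tested. None passed an adjusted p of 0.05 in any of the 5 comparisons by edgeR. In the hippocampus 3 had an unadjusted p under 0.05 with the larger mean in 5 × FAD and 4 with the smaller, beside 8.69% of all genes in either direction, and in the cortex it was 4 and 4, beside 6.67%. Their median log2 fold change was 0.13 in the hippocampus and -0.08 in the cortex, where all genes had 0.03 and -0.00.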

How the data were processed

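RNA of 12 libraries, 3 for each region and genotype, was rRNA-depleted, made into stranded paired-end libraries and counted per long non-coding transcript. The authors deposited whole-number counts without normalisation. The submitters' processing notes name Trimmomatic 0.36 and edgeR; the aligner, the counting tool, its use of strand and the genome build are not given in the sources used here. Of 45597 Ensembl identifiers, 45372 matched GENCODE vM21, which supplied names, types and exons, and 2436 assembled rows carry no such identifier.

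The counts were analysed per row and summed per gene with edgeR 4.0.16 in R 4.3.3 (filterByExpr, TMM scaling, glmQLFit and glmQLFTest, Benjamini-Hochberg adjustment over all features tested), on the 6 libraries of each comparison and on all 12 for the difference between regions. Row-level CPM and gene-sum CPM were scaled separately. DESeq2 1.42.0, other scalings and filters, a replicate block, detection of Y-linked transcripts as a covariate and leaving out libraries were alternatives. The fits were tested on simulated data. In a simulated hippocampal genotype comparison, edgeR recovered 0% of rows changed by 1.5 on the log2 scale and 44.87% of those changed by 3. For gene sums it recovered 37.5% and 93.55%, so smaller differences could easily be missed. Members, gene lists and tests were chosen with earlier results of these data known. Named were members past an adjusted p of 0.05, members with an unadjusted p under 0.05 and no overlap in a genotype comparison, the gene with the most counts in each role group, Vps33b, a gene the study followed by qRT-PCR, and the main rows of these genes. Other members with values, among them Grn, Npc1, Npc2, Atp6v1a, Ctsd, Ulk1, Atg9a, Atg3, Map1lc3b and Atp6v0b and the rows of Tpp1 and Atp6v0a1, were chosen after their values were seen.

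The libraries of a group are separate mice, but both regions came from each mouse and no label ties a hippocampal to a cortical library, so region tests treat related libraries as independent. Same-numbered libraries of a genotype correlated at 0.006 to 0.132 between regions over 24632 rows, and other-numbered ones at -0.106 to 0.058. Between genotypes same-numbered libraries correlated at -0.039 to 0.009, and the number was not taken to pair libraries. The value of 0.132 was that of the libraries numbered 5 × FAD 3, the only 5 × FAD ones with Y-linked counts. Since each mouse gave both regions, these would come from the same mouse and are not independent of each other. The counts carry no molecular identifiers, and limits from 3 counts cover counting error only.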

Additional observations from a re-analysis of the deposited data

How the results depend on the processing

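edgeR called 0 members in each of the 10 comparisons under each alternative that was run on it: other scalings and filters, robust estimation, all 12 libraries in one fit, Y-linked detection as a covariate, leaving out any 1 library and, for comparisons within 5 × FAD or between regions, leaving out both libraries numbered 5 × FAD 3, which was added after seeing the data. DESeq2 called 1 member among the cortical gene sums (Vps39, at -2.23), 1 among the cortical rows (Vps39, at -4.29) and 1 among the WT region rows (Becn1, at -2.00), and the cause was not tested. With the replicate block, 0 members were called in every comparison, the WT region calls over all genes went from 399 to 5, and the hippocampal value of Vps39 turned to -0.15. Of 70 named fold changes, 10 changed sign in some setting, none of them called. With Y-linked detection as a covariate these were Atp6v0a1 in the hippocampus (-0.0061) and, in the cortex, Tpp1 (-0.0186), Nbr1 (0.0274) and Vps33b (-0.0441). Over leaving out single libraries, the hippocampal values ran from -0.22 to 0.17 for Ctsa, -0.12 to 0.52 for Atp6v0a1, -0.15 to 0.33 for Tsc1, -0.81 to 0.59 for Vps39 and -0.0434 to 0.0982 for Atg16l1. The cortical values ran from -0.0713 to 1.10 for Ctsa, -0.12 to 0.12 for Tpp1, -0.17 to 0.26 for Tsc1, -0.0888 to 0.0401 for Nbr1 and -0.15 to 0.40 for Vps33b. At 3 libraries a group, a p that misses the threshold does not show that levels were alike, and rows under 10 counts could show no difference at this depth.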
